A study of Homo sapiens with 10 samples.

Results

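PAX3, PAX7, MSX1, MSX2, TFAP2A, TFAP2B, TFAP2C, FOXD3, SOX9 and SOX10 are transcription factors of the neural crest and the dorsal neural tube. They were taken by name, as known factors of these tissues, and these 10 genes are described here out of 24050 genes listed in the count tables of HEK293T cells and neural progenitor cells (NPCs). Stranded mRNA libraries were sequenced from wild-type (WT) and ZNF274 knock-out (KO) cells, with 3 WT and 3 KO libraries of HEK293T cells, a line derived from human embryonic kidney, and 2 WT and 2 KO libraries of NPCs. The NPCs were derived in culture from H1 human embryonic stem cells through embryoid bodies, and no other treatment or time point separates the groups. ZNF274 is a KRAB zinc finger protein, of a family known to recruit repressive chromatin marks to DNA. It was deleted with a pair of guide RNAs, and single clones were picked, so that each KO library comes from a clone and carries what that clone acquired. Libraries are named by the number in their labels (S1 to S20), and the spread between them is a spread between clones or cultures.

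The neural crest is a population of cells that forms at the border of the neural plate, leaves the dorsal neural tube and gives rise to peripheral neurons, glia, melanocytes and much of the facial skeleton. WNT, BMP and FGF signals first induce border factors (PAX3, PAX7, MSX1, MSX2 and TFAP2 proteins), which then turn on the crest specifiers FOXD3, SOX9 and SOX10. Several of the 10 are also used elsewhere: PAX3 and PAX7 in muscle precursors, SOX9 in cartilage and in neural stem cells, TFAP2A and TFAP2C in surface ectoderm and trophoblast, and FOXD3 in pluripotent cells.

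The libraries held 21421013 to 32285876 counts on genes in HEK293T cells and 18621266 to 23035490 in NPCs. ZNF274 had 423 to 496 counts in the 5 WT libraries and 0 in each of the 5 KO libraries. The WT NPC libraries were less alike than the KO ones: of 13987 genes with a mean of at least 1 CPM (a gene's counts relative to its library's total, on one scale for all libraries), 1.59% differed by more than 4-fold between WT libraries S3 and S5, against 0.307% between KO libraries S1 and S2. In bulk RNA, a change in the number of cells that express a gene and a change in RNA per cell cannot be told apart. The NPC label was checked against a list of neural progenitor genes: in WT NPCs VIM stood at 6411 ± 859 CPM, NES at 2630 ± 518 and SOX2 at 223 ± 5.52 (mean ± SD, n = 2). Of its 19 genes 17 were tested, and others were low or uneven in WT NPCs, with HES5 at 0.244 ± 0.0561, SIX6 at 0.396 ± 0.0914 and SOX1 at 29.0 ± 30.6 CPM.

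CPM values were normalized by TMM within each table, and levels of different genes were compared only per kilobase (kb) of the union of a gene's exons. In WT NPCs, the order by mean CPM per kb was MSX1 (8.797), SOX9 (7.67), MSX2 (4.29), TFAP2C (0.907), PAX7 (0.110), TFAP2B (0.0985), TFAP2A (0.0585) and PAX3 (0.0573). MSX1, SOX9 and MSX2 overlapped as neighbours in that order, as did PAX7, TFAP2B, TFAP2A and PAX3. FOXD3 had 0 counts and SOX10 at most 2 counts in a WT NPC library, which is within the level of 3 counts used here as the floor. In KO NPCs the order was SOX9 (23.9), MSX2 (19.97), PAX3 (5.99), MSX1 (2.83), SOX10 (0.892), TFAP2B (0.391), TFAP2C (0.127), FOXD3 (0.114), TFAP2A (0.0520) and PAX7 (0.0365), with the libraries of SOX9 and MSX2, of SOX10 and TFAP2B, of TFAP2C and FOXD3 and of FOXD3 and TFAP2A overlapping. Per kb of the longest transcript, PAX3 (0.135) stood above TFAP2A (0.125), PAX7 (0.115) and TFAP2B (0.108) in WT NPCs, so the order of these 4 depends on the length used.

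In WT HEK293T cells the order was MSX2 (7.77 CPM per kb), MSX1 (7.05), TFAP2A (4.28), SOX9 (3.11), FOXD3 (1.36), PAX3 (1.35) and TFAP2C (0.716). The values of MSX2 and MSX1 overlapped, and so did those of FOXD3 and PAX3. SOX10 had 0 counts in all 6 HEK293T libraries, PAX7 had 0 in the WT and 1 to 2 in the KO libraries, and TFAP2B was not analysed here in HEK293T cells. In KO HEK293T cells MSX1 (7.35) stood above MSX2 (6.53), with overlapping libraries, and the other 5 kept their places. These orders depend on the length used: per kb of the longest transcript TFAP2A stood first in WT (9.18, against 7.88 for MSX2 and 7.71 for MSX1) and in KO HEK293T cells (11.2, against 8.03 for MSX1), and PAX3 (3.18) stood above SOX9 (3.11) and FOXD3 (1.36) in WT HEK293T cells.

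**Figure D1:**
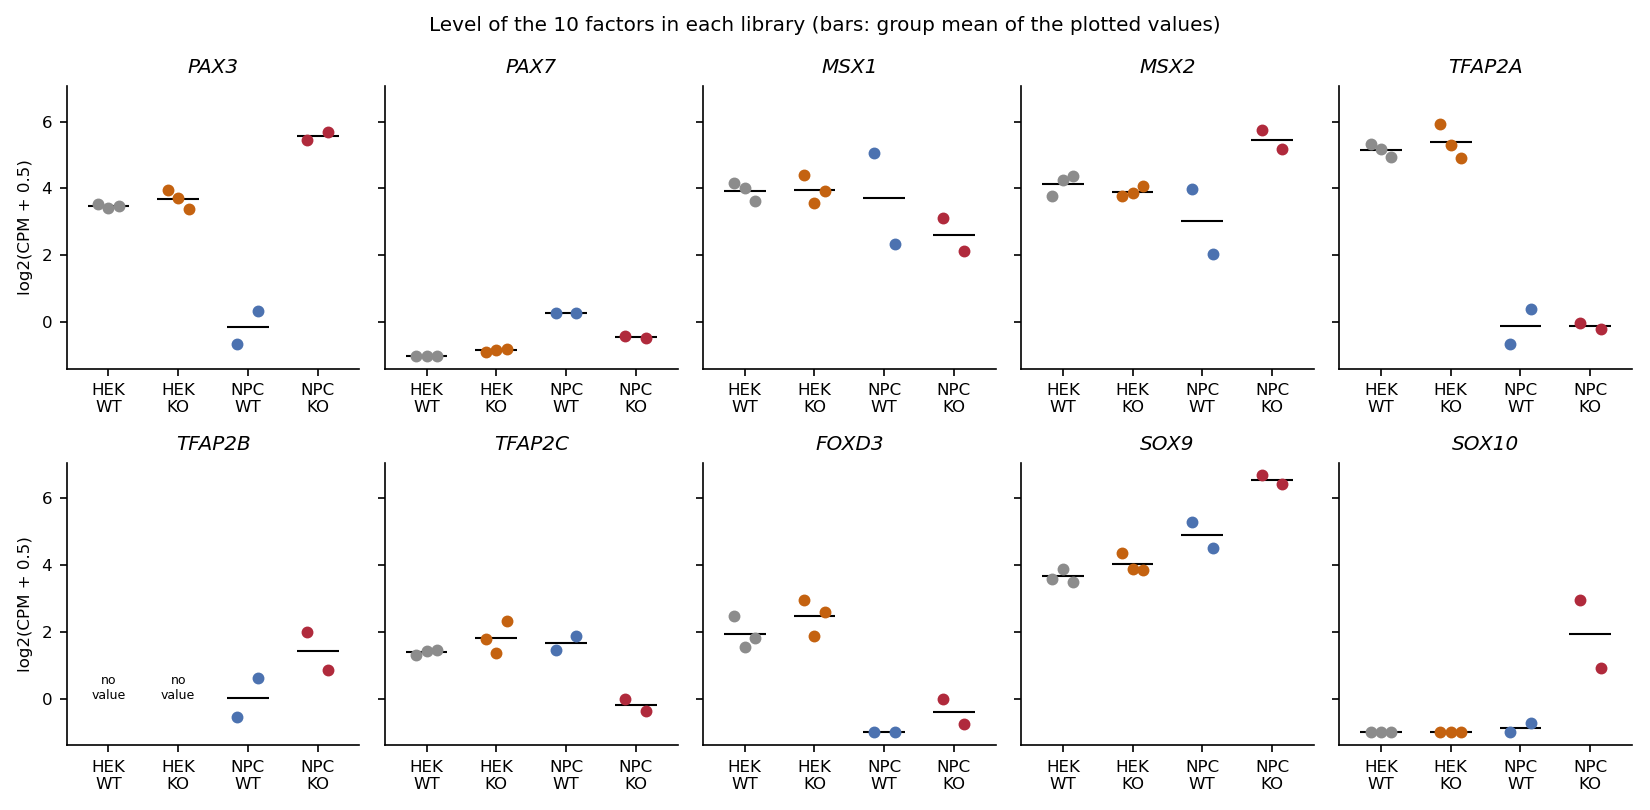
Level of each of the 10 factors in every library, as log2(CPM + 0.5), by group (HEK, HEK293T; points, libraries; bars, means of the plotted values; no value for TFAP2B in HEK293T cells). The KO NPC points of PAX3, MSX2, SOX9 and SOX10 lie above both WT NPC points and those of TFAP2C below them, while in HEK293T cells the KO and WT points overlap for each of the 7 factors tested there.

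In NPCs all 10 factors passed the filter on low counts (a total of at least 1 count per library), and 5 were called, at an adjusted P value below 0.05 in edgeR's quasi-likelihood test and a fold change (FC) above 2. PAX3, MSX2, SOX9 and SOX10 rose in KO NPCs and TFAP2C fell. Of all 20577 genes tested in NPCs, 16.8% were called, 8.45% higher and 8.36% lower, so that a call was common in this comparison. FOXD3 and SOX10 passed the filter through their counts in the KO libraries. Likewise, any gene described below with 0 counts in 1 group passed it through the other group.

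The border factors of the PAX family are described first. PAX3 (ENSG00000135903, chr2:223064606-223163717, minus strand, hg19) had 3 and 15 counts in WT NPCs S3 and S5 and 882 and 1145 in KO NPCs S1 and S2. Its level went from 0.455 ± 0.443 to 47.6 ± 5.66 CPM (mean ± SD, n = 2), a log2 FC of 6.72 with a standard error (SE) of 0.46 and an adjusted P of 1.49e-04 (edgeR). Both KO libraries lay far above both WT libraries. The call held in each of the 17 alternatives tried, with log2 FC between 5.94 and 8.34. Some of these changed only a threshold on the same fit, and some left out a WT library. In HEK293T cells PAX3 had 336, 298 and 313 counts in the WT and 344, 411 and 264 in the KO libraries, and these overlapped (log2 FC 0.22, SE 0.21, adjusted P = 0.866 by edgeR). KO NPCs thus held more PAX3 (43.6 and 51.6 CPM) than any HEK293T library (9.87 to 15.03 CPM), although the levels come from tables normalized separately.

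PAX7 (ENSG00000009709, chr1:18957340-19075360, plus strand) is the paralog of PAX3 and shares its DNA-binding domains. It had 15 and 14 counts in WT NPCs S3 and S5 and 5 in each KO library. The groups did not overlap, but the log2 FC of -1.57 (SE 0.69) did not pass (adjusted P = 0.133, edgeR). PAX7 therefore held 86.0% and 53.4% of the summed PAX3 and PAX7 level per kb in WT NPCs S3 and S5, and 0.691% and 0.533% in KO NPCs S1 and S2. The majority in S5 depends on the length used, since per kb of the longest transcript PAX3 stood at 0.229 and PAX7 at 0.115 CPM there. In HEK293T cells PAX3 held at least 99.1% of that sum in each library.

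The MSX homeobox factors, which act at the neural plate border downstream of BMP, were both well detected in WT NPCs but differed between the WT libraries. MSX1 (ENSG00000163132, chr4:4861392-4865663, plus strand) had 691 counts in WT library S3 and 90 in S5, a 7.10-fold difference in CPM, and 165 and 86 in KO libraries S1 and S2. Its groups overlapped, and the log2 FC of -1.64 (SE 0.80) did not pass (adjusted P = 0.172, edgeR). Its direction rests on library S3: in a fit over the other 9 libraries the log2 FC was 0.40 without S3, and -2.45, called lower, without WT library S5. MSX2 (ENSG00000120149, chr5:174151585-174157899, plus strand) had 326 and 71 counts in WT libraries S3 and S5, 4.25-fold apart in CPM, and 1078 and 790 in KO libraries S1 and S2. It rose from 9.53 ± 8.34 to 44.4 ± 12.5 CPM (log2 FC 2.21, SE 0.57, adjusted P = 0.0261 by edgeR), and both KO libraries lay above both WT libraries. Its log2 FC was 3.61 without WT library S3 and 1.51 without WT library S5, and 2.22 with DESeq2. The call was lost with DESeq2 (adjusted P = 0.0634) and without KO library S1 (0.130) or S2 (0.0503) in edgeR.

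Within the pair, MSX2 held 31.0% and 42.9% of the summed MSX1 and MSX2 level per kb in WT NPCs S3 and S5, and 86.2% and 89.8% in KO NPCs S1 and S2. In HEK293T cells it held 37.7 to 62.0%. The share in both KO NPC libraries was thus above that in each of the other 8 libraries.

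The 250 bases before the annotated starts of the PAX and MSX genes are shown because PAX3 and MSX2 both rose in NPCs, and each stands beside its paralog, which did not pass. They are from RefSeq on GRCh38.p14, not the build of the counts, on the strand of the gene, 5′ to 3′, and capitals mark CCAAT or its reverse complement ATTGG.
PAX3 (chr2:222298999-222299248, minus strand): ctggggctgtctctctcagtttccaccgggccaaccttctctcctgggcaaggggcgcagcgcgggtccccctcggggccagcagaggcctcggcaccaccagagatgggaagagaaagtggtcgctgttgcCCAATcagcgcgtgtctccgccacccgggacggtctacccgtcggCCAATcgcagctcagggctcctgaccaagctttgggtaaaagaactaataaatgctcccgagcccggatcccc
PAX7 (chr1:18630596-18630845, plus strand): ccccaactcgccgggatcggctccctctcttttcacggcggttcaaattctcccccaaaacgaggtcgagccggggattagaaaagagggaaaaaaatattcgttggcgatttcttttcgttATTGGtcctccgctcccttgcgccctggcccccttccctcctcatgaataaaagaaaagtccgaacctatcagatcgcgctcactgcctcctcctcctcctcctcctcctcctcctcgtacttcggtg
MSX1 (chr4:4859415-4859664, plus strand): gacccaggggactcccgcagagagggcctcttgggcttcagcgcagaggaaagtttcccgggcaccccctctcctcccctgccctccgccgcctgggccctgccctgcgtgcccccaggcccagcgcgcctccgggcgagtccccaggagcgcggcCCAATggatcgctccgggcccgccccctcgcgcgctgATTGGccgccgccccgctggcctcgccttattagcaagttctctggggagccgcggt
MSX2 (chr5:174724332-174724581, plus strand): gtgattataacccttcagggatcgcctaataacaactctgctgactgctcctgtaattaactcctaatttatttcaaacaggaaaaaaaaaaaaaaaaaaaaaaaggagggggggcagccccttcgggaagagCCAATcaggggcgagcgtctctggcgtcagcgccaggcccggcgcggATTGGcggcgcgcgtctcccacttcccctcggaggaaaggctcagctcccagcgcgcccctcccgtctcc
PAX3, MSX1 and MSX2 each held 2 such matches and PAX7 held 1. The pair began 118 and 73 bases before the start in PAX3, 94 and 57 in MSX1 and 117 and 70 in MSX2. CCAAT was searched on both strands after the sequences had been seen, and 32.01% of the 35116 RefSeq windows held at least 1 match, against 5 of the 8 windows found for 7 of the 10 factors. The share of all windows with 2 matches was not counted, so that how common a pair is cannot be said. MSX1 and MSX2 differed in base composition, with 74.0% and 55.6% G or C, against a median of 58.0% over all windows.

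Letters of sites bound by other factors were searched in the same 8 windows. GCCNNNGGC (TFAP2), ACAATG (SOX), TGTTTAC (forkhead) and CACCTG (E-box, bound by SNAI and ZEB factors) had no match on either strand in any of them, against 19.8%, 9.29%, 2.98% and 17.5% of all windows. ACAAAG (SOX) was found in 1 window, that of FOXD3, against 13.7% of all windows, and TAATTG (homeodomain) in 1, that of TFAP2B, where it overlaps a CCAAT match, against 6.70%. The window of FOXD3 is shown with its match, read on the reverse strand, in capitals, from 126 to 121 bases before the start.
FOXD3 (chr1:63322317-63322566, plus strand): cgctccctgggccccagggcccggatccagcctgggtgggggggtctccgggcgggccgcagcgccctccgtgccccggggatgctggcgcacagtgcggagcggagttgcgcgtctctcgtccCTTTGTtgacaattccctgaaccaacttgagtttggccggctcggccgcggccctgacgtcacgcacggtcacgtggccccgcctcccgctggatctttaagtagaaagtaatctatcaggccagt
These are matches of letters in a short window.

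TFAP2 factors bind DNA as dimers and act at the border and in surface ectoderm. TFAP2A (ENSG00000137203, chr6:10393419-10419892, minus strand), the member most tied to crest induction, was near the floor in NPCs, with 3 and 16 counts in WT libraries S3 and S5 and 10 and 8 in KO libraries S1 and S2. The groups overlapped (log2 FC -0.16, SE 0.91, adjusted P = 0.920 by edgeR), and an SE of this size leaves changes of more than 2-fold in either direction undetected. In HEK293T cells the same gene had 898 to 1184 counts in WT and 798 to 1387 in KO libraries.

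TFAP2B (ENSG00000008196, chr6:50786436-50815332, plus strand), which is used in crest-derived sympathetic neurons, had 4 and 20 counts in WT and 71 and 29 in KO NPCs. Its KO values lay above the WT values, 2.41 ± 1.56 against 0.607 ± 0.590 CPM, but the log2 FC of 1.99 (SE 0.80) did not pass (adjusted P = 0.109, edgeR). The log2 FC depended on single libraries, with 3.61 without WT library S5, 1.22 without WT library S3 and 1.11 without KO library S1. TFAP2C (ENSG00000087510, chr20:55204362-55214339, plus strand), a factor of germ cells, trophoblast and early ectoderm, went the other way. It had 48 and 62 counts in WT and 10 and 6 in KO NPCs, and fell from 2.72 ± 0.637 to 0.382 ± 0.158 CPM (log2 FC -2.82, SE 0.51, adjusted P = 0.00695 by edgeR). The call was lost without KO library S2 (adjusted P = 0.0587). TFAP2C held 94.0% and 79.9% of the level per kb summed over the 3 factors in WT NPCs S3 and S5, and 20.7% and 26.02% in KO NPCs S1 and S2, where TFAP2B held 71.7% and 61.3%. In HEK293T cells TFAP2A held 70.8 to 88.3% of the sum of TFAP2A and TFAP2C alone.

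Among the crest specifiers, FOXD3 (ENSG00000187140, chr1:63788238-63790799, plus strand), a forkhead factor of premigratory crest and of pluripotent cells, had 0 counts in both WT NPCs and 10 and 2 counts in KO NPCs S1 and S2. Against the floor of 3 counts per library this is at least 1.98-fold higher, and it did not pass (adjusted P = 0.102, edgeR), with KO library S2 itself under the floor. It passed in a fit of all 10 libraries together (adjusted P = 0.0343, edgeR). In HEK293T cells FOXD3 had 150, 70 and 90 counts in WT and 164, 103 and 147 in KO libraries, which overlapped.

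SOX9 (ENSG00000125398, chr17:70117161-70122557, plus strand) is the SOXE factor that comes first in the crest and is also known from cartilage and from neural stem cells. It had 807 and 431 counts in WT NPCs S3 and S5 and 2067 and 1896 in KO NPCs S1 and S2, and rose from 30.1 ± 11.4 to 93.8 ± 11.8 CPM (log2 FC 1.64, SE 0.25, adjusted P = 0.00341 by edgeR). The groups did not overlap. The call held in each of its 17 alternatives, which were of the same kinds as for PAX3, with log2 FC between 1.29 and 2.10. SOX9 was already the second of the 10 in WT NPCs and had the highest level of them per kb in KO NPCs.

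SOX10 (ENSG00000100146, chr22:38366693-38383429, minus strand), which maintains migrating crest and its glial and melanocyte descendants, had 0 and 2 counts in WT NPCs S3 and S5 and 146 and 31 in KO NPCs S1 and S2. The ratio of CPM-scaled counts was 84.8, with a 95% counting interval of 23.1 to 706 (adjusted P = 0.00870, edgeR). Both KO libraries were above the floor, but S1 held 5.16 times the CPM of S2. The call was lost with voom (adjusted P = 0.108) and, in edgeR, without KO library S1 (0.0577). SOX10 held 5.44% of the summed SOX9 and SOX10 level per kb in S1 and 1.31% in S2, so that SOX9 remained the larger part of the SOXE level in both.

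**Figure D2:**
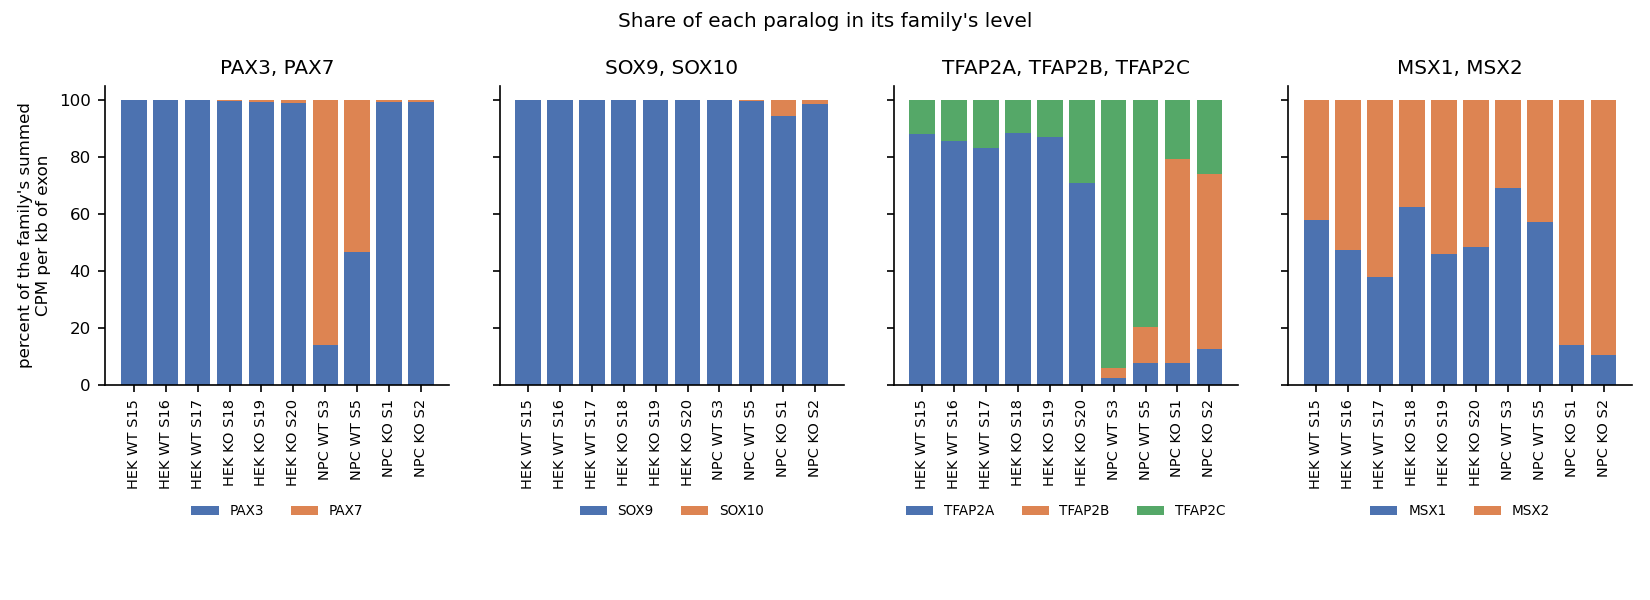
Share of each factor in the summed level (CPM per kb of exon) of its family, in percent, for each of the 10 libraries (TFAP2B has no HEK293T value and is drawn as 0 there). In NPCs the shares of PAX3, TFAP2B and MSX2 are larger in both KO libraries than in both WT libraries, and SOX9 takes over 94% in each library.

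In HEK293T cells 0 of the 7 factors tested were called, 0 had an unadjusted p below 0.05 in edgeR, and voom and DESeq2 also called 0. Of 19018 genes tested there, 0.489% were called. PAX7 and SOX10 did not pass the filter there. The log2 FC of the 7 ran from -0.25 (MSX2) to 0.59 (FOXD3), with SE of 0.20 to 0.36. SOX9 had 343, 417 and 320 counts in WT and 458, 459 and 370 in KO libraries (log2 FC 0.39, SE 0.21, adjusted P = 0.763 by edgeR), and TFAP2C had 59, 64 and 67 against 67, 68 and 120 (log2 FC 0.56, SE 0.33, adjusted P = 0.778). A P value that misses the threshold does not show that the levels were alike.

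The difference of the KO effect between NPCs and HEK293T cells was tested as an interaction over all 10 libraries, in which 9 of the factors were tested, PAX7 and SOX10 among them with HEK293T counts within the floor. Of 19255 genes, 12.2% were called, 6.01% with a higher effect in NPCs and 6.22% with a lower one. PAX3 (log2 difference 6.52, SE 0.52, adjusted P = 1.36e-05 by edgeR), MSX2 (2.48, SE 0.60, adjusted P = 0.0160) and SOX9 (1.27, SE 0.35, adjusted P = 0.0286) were called higher, and TFAP2C lower (-3.36, SE 0.61, adjusted P = 0.00339). PAX7 was called lower as well, but its HEK293T counts were within the floor in all 6 libraries, so that its value rests on no measured HEK293T level. The difference was not called for MSX1 (-1.68, SE 0.83), TFAP2A (-0.42, SE 0.77) or FOXD3, and it could not be estimated for SOX10. Without WT NPC library S3 the log2 difference was 0.34 for MSX1 and -1.21 for TFAP2A, and without S5 it was -2.51 and 1.26, so that their directions rest on single libraries. The call for SOX9 was lost with scaling by library size alone and without any 1 of 6 of the 10 libraries (WT HEK293T S16, KO HEK293T S19 and S20, WT NPC S5 and KO NPCs S1 and S2), with log2 differences of 0.91 to 1.39 there, and that for MSX2 was lost without KO NPC library S1 (2.17). The cell types are held in separate tables and differ in origin and clones, which cannot be told apart.

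**Figure D3:**
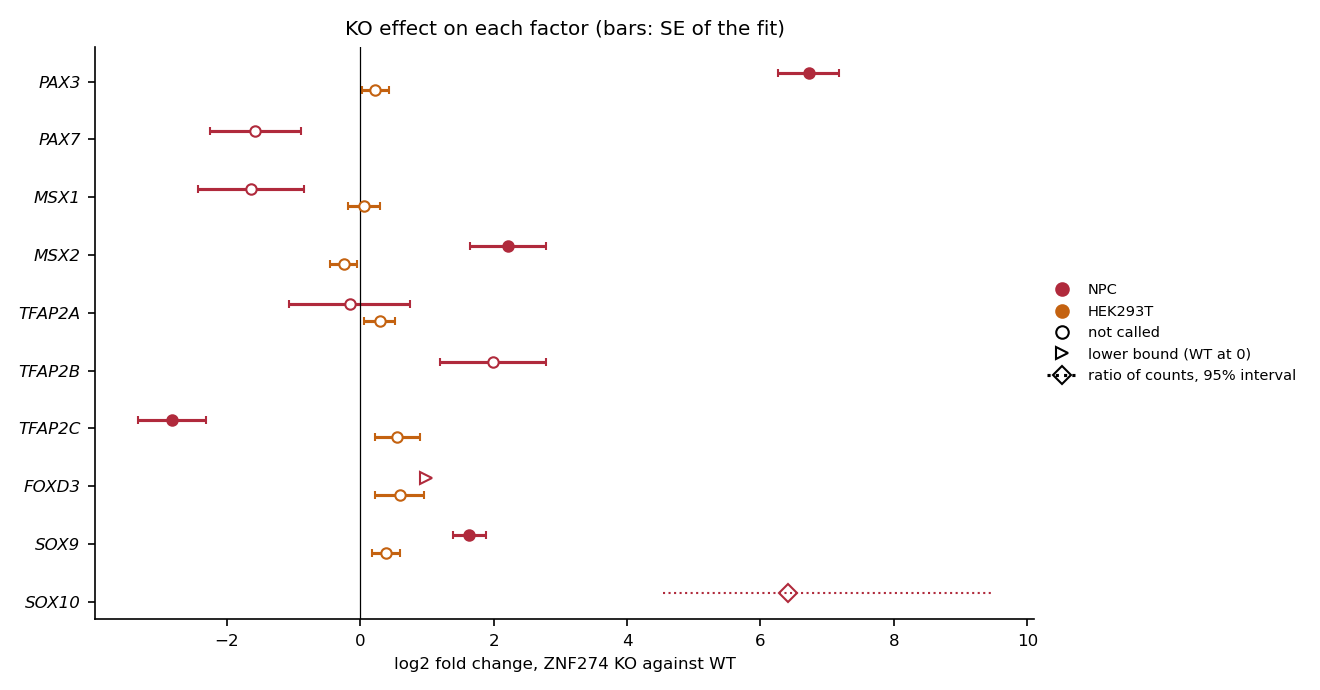
Log2 FC of KO against WT libraries for each factor in NPCs and HEK293T cells (points, edgeR estimate; bars, SE; filled, called; triangle, lower bound of FOXD3 in NPCs; diamond and dotted line, ratio of SOX10 counts with its 95% counting interval). The HEK293T values lie between -0.25 and 0.59. The NPC values of the 4 factors that rose and of TFAP2C lie outside that range. So do those of TFAP2B, MSX1 and PAX7 and the bound of FOXD3, which were not called. TFAP2B, PAX7 and SOX10 have no HEK293T value.

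WT NPCs were then compared with WT HEK293T cells, in a normalization of all 10 libraries together. Of 19255 genes 40.7% were called, 25.2% higher and 15.5% lower in NPCs. Of the 9 factors tested, PAX3 (0.456 ± 0.443 CPM in NPCs, n = 2, against 10.7 ± 0.444 in HEK293T cells, n = 3), TFAP2A (0.482 ± 0.479 against 35.1 ± 4.50) and FOXD3 (at least 23.5-fold lower, 0 counts in NPCs) were lower in NPCs. SOX9 was higher in NPCs (30.3 ± 11.5 against 12.2 ± 1.92 CPM) and so was PAX7 (at least 7.05-fold, 0 counts in HEK293T cells). MSX1 and MSX2 overlapped between the cell types, and TFAP2C (2.73 ± 0.634 against 2.14 ± 0.163 CPM) did not pass, and SOX10 was within the floor in both. MSX2 was called lower by voom (log2 FC -1.15, adjusted P = 0.0494) and not by edgeR (-0.85, 0.117). Without WT NPC library S3, SOX9 was not called and MSX1 (log2 FC -1.69) and MSX2 (-2.24) were called lower, while without S5 MSX1 was called higher (1.14). In the normalization of the 10 libraries, PAX3 was thus low in WT NPCs and not in WT HEK293T cells.

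Genes around each factor were examined for the same comparison. Of the 23 genes that overlap a factor or are its nearest tested neighbours in NPCs, 2 were called higher and 1 lower, beside 16.8% of all genes called in either direction, and 0 of 24 in HEK293T cells. CCDC140 (ENSG00000163081), a noncoding gene that starts within the PAX3 locus on the opposite strand and shares no exon bases with PAX3, had 0 counts in both WT NPCs and 41 and 48 in KO NPCs S1 and S2, at least 14.2-fold higher (adjusted P = 0.00214, edgeR). In HEK293T cells it had 10, 10 and 8 counts in WT and 16, 6 and 8 in KO libraries. CCDC140 and PAX3 thus rose together in NPCs. HSPA9P1 and CT75, the next tested genes on either side of PAX3, had 1 to 5 and 2 to 5 counts in the NPC libraries, at or near the floor, and did not pass. CYTL1, 150650 bases from MSX1, rose (log2 FC 1.5, SE 0.27, adjusted P = 0.00716 by edgeR). BMP7, 529470 bases from TFAP2C and encoding a BMP ligand, fell from 277 ± 37.6 to 26.4 ± 2.48 CPM (log2 FC -3.39, SE 0.15, adjusted P = 3.05e-05 by edgeR).

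SOX10 lies within the POLR2F locus on the opposite strand and shares 260 of its 4826 exon bases with it, and FOXD3 shares 618 of 2562 with FOXD3-AS1. TFAP2A shares 438 of its 8220 exon bases with TFAP2A-AS1. Whether the counting used strand is not given in the sources used here, so that reads from those shared bases cannot be assigned. POLR2F went from 27.6 ± 0.629 to 41.4 ± 2.23 CPM in NPCs, with an adjusted P of 0.0175 (edgeR) and a log2 FC of 0.59 that was under the FC threshold, and it had 2011 to 3006 counts in the HEK293T libraries, in which SOX10 had 0. FOXD3-AS1 had 0 counts in WT NPCs and 2 and 0 in KO NPCs S1 and S2. SOX9-AS1, which overlaps SOX9 without shared exon bases, had 28 and 20 counts in WT NPCs and 2 and 10 in KO NPCs (adjusted P = 0.0830, edgeR). Between paralogs, the longest run of bases shared exactly by their transcripts was 45 for SOX9 and SOX10, 33 for PAX3 and PAX7, 31 for TFAP2A and TFAP2B and 28 for MSX1 and MSX2, and the authors counted uniquely mapped reads.

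Genes with a profile most like each factor were sought by Pearson's r of log2(CPM + 0.5) over the 10 libraries, among 15234 genes with at least 1 CPM in a group. These are descriptions over libraries that fall into 4 groups. TBC1D8 (r = 0.985) and COBLL1 (0.984) were closest to PAX3, and CFAP69 (0.922) and BTG1 (0.913) to MSX1. PRKCA (0.953) and HSP90B1 (0.951) were closest to MSX2, ERLIN1 (0.991) and CYP1B1 (0.987) to SOX9, and PDCD6P1 (0.970) and TIGD3 (0.954) to TFAP2C. ARIH2 (0.995) and HERC5 (0.994) were closest to TFAP2A, and TMEM179B (0.992) and APEX2 (0.9898) to FOXD3. TFAP2A, SOX9 and FOXD3 had 979, 358 and 315 genes at r above 0.95. RIPK3 (r above 0.99) and the gene ENSG00000248187 (0.998) were closest to SOX10, whose profile rests on 3 libraries with counts. MSX1 was the only one of the 8 factors with 0 genes at r above 0.95, and MSX2 had 2 and TFAP2C 3. By Spearman's rho, CFAP69 was also the first for MSX1 and RIPK3 was 1 of 4 genes that tied at the highest rho for SOX10, while the first gene of each of the other 6 ranked between 2 and 204.

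Other genes of the crest pathway were taken from lists. Of 29 premigratory and migratory crest genes tested in NPCs, 8 rose and 6 fell, with a median log2 FC of 0.24 against -0.02 over all genes. This and the following counts of list genes stand against 8.45% of all genes called higher and 8.36% called lower in NPCs. ITGA4, an integrin of migrating crest, rose from 3.48 ± 2.24 to 62.0 ± 22.1 CPM, and EDNRA, the endothelin receptor of cranial crest, from 6.03 ± 5.27 to 72.1 ± 20.3. NGFR, a surface marker of crest cells, rose from 1.33 ± 0.804 to 15.7 ± 13.0 CPM and RXRG from 0.524 ± 0.597 to 4.06 ± 3.06. For NGFR and RXRG the SD in KO was not far below the mean, so that their KO libraries were uneven. SNAI2 (20.9 ± 4.62 to 152 ± 30.9 CPM) and ETS1 (61.5 ± 20.9 to 321 ± 5.01) also rose. ID2 (49.7 ± 20.03 to 5.95 ± 1.99 CPM), NR2F1 (214 ± 14.6 to 27.9 ± 11.1), SOX5 (24.3 ± 8.33 to 3.71 ± 1.81) and EDNRB, the endothelin receptor of trunk crest (9.42 ± 0.141 to 1.60 ± 1.24), fell. B3GAT1, an enzyme that makes the HNK-1 epitope of migrating crest (33.9 ± 12.0 to 6.92 ± 0.484 CPM), and LMO4 (68.3 ± 23.9 to 34.1 ± 2.29) also fell, and these 2 genes, SNAI2 and ETS1 were named after their values had been seen. The list thus moved in both directions. In a fit over the other 9 libraries, 3 rose without KO library S1 and 3 fell without S2.

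Of 16 neural plate border and dorsal neural tube genes tested in NPCs, 2 rose and 7 fell, with a median log2 FC of -2.08. LMX1B (0.5003 ± 0.306 to 12.3 ± 1.34 CPM) and the roof plate ligand GDF7 (1.35 ± 0.899 to 6.16 ± 0.435) rose. WNT1, the dorsal midbrain WNT, was at 89 and 68 counts in WT and 0 in KO NPCs, at least 27.2-fold lower, and the WNT agonists RSPO3 (76.8 ± 61.3 to 0.0741 ± 0.105 CPM) and RSPO1 (18.7 ± 18.4 to 0.0719 ± 0.0380) fell, as did the roof plate factor LMX1A (42.6 ± 42.5 to 1.79 ± 0.750). For RSPO3, RSPO1 and LMX1A the SD in WT was near the mean, as for MSX1. The count of genes that fell was 4 in fits over 9 libraries without WT library S5 or without KO library S1.

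Of 16 readout genes of BMP and WNT signalling, the signals upstream of the border factors, 2 rose and 10 fell (median log2 FC -1.64). ID4 fell from 87.1 ± 9.59 to 4.18 ± 1.91 CPM, LEF1 from 27.3 ± 5.26 to 4.67 ± 0.870 and BAMBI from 79.1 ± 62.3 to 17.5 ± 1.88. DKK1, a secreted WNT inhibitor, rose from 4.42 ± 3.72 to 54.2 ± 15.4 CPM and SMAD7, an inhibitor induced by TGF-beta and BMP, from 7.25 ± 2.80 to 18.96 ± 0.198. Among the BMP readouts ID1, ID2, ID4 and BAMBI fell, SMAD7 rose, and ID3 and SMAD6 were not called. In fits over 9 libraries, 6 fell without KO library S2 and 1 rose without WT library S5.

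Genes of crest derivatives were higher in more cases than lower. Of 17 Schwann, melanocyte and autonomic genes tested, 6 rose and 1 fell (median log2 FC 0.96). CDH19, a cadherin of Schwann cell precursors, had 0 counts in WT and 126 and 47 in KO NPCs S1 and S2, at least 28.2-fold higher, with S1 the higher library as for SOX10. TH, which also rose, had 0 counts in WT and 22 and 8 in KO NPCs S1 and S2. Both CDH19 and TH passed the filter through their KO counts. RET (1.14 ± 0.272 to 10.7 ± 2.13 CPM), the melanocyte factor MITF (1.33 ± 0.143 to 9.99 ± 0.782) and the myelin gene PMP22 (24.8 ± 1.998 to 145 ± 27.8) rose, and the melanin enzyme DCT had 104 and 191 counts in WT and 0 in KO NPCs, at least 51.9-fold lower. S100B and PMEL did not pass, and PHOX2A and DBH were under the filter. Of 15 ectomesenchyme genes, 9 rose and 0 fell (median log2 FC 2.53), among them MEOX1 (0.242 ± 0.126 to 12.1 ± 0.777 CPM), FOXC2 (1.23 ± 0.141 to 30.8 ± 5.56) and POSTN (0.628 ± 0.487 to 9.81 ± 11.8). For POSTN the SD in KO was above the mean, so that its KO libraries were uneven. FOXC2 and MEOX1 are also genes of paraxial mesoderm. Of the genes closer to facial mesenchyme, ALX1 and PRRX1 did not pass. ALX4 (0.0985 ± 0.00544 to 1.025 ± 0.367 CPM) and FOXC1 (1.44 ± 1.24 to 7.89 ± 4.145) rose and were named after their values had been seen.

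Cell types other than crest in which these factors are used were examined through their own lists. Of 7 skeletal myogenic genes tested, 3 rose, DES (2.01 ± 0.633 to 172 ± 18.7 CPM), MET (10.9 ± 4.72 to 66.3 ± 24.1) and SIX4, and ACTC1 fell. The summed level of that list was 40.8 to 52.9 CPM in WT and 281 CPM in both KO NPCs, while the defining factors MYF5, MYF6, MYOD1 and MYOG were not analysed here in NPCs. Of 14 cartilage genes 3 rose, among them HAPLN1 (5.18 ± 5.66 to 357 ± 45.1 CPM) and ACAN (0.0493 ± 0.00272 to 2.31 ± 2.18), and 4 fell, among them COL2A1, the main cartilage collagen and a known SOX9 target (339 ± 149 to 45.9 ± 19.1 CPM), COL9A1 and COL9A2. For ACAN the SD in KO was near the mean. In a fit over the other 9 libraries, 2 cartilage genes fell without KO library S1 and 2 without S2. COL2A1 thus fell where SOX9 rose, and the list's summed level was 715 to 900 CPM in WT and 711 to 868.1 in KO NPCs. Of 13 surface ectoderm, amnion and trophoblast genes, 4 rose, among them KRT7 (0.219 ± 0.0923 to 9.22 ± 3.03 CPM), KRT18 and KRT8, and 1 fell, VTCN1, while CDH1 stood at 0.0237 ± 0.0335 and 0.137 ± 0.124 CPM. The part of any of these cell types in the levels of the 10 factors was not tested.

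Neural progenitor genes fell in KO NPCs. Of 17 tested, 0 rose and 12 fell (median log2 FC -3.72, or -2.27 with genes at 0 in a group set to their bound). SIX3, a forebrain factor, had 490 and 487 counts in WT and 0 in KO NPCs, at least 169.9-fold lower, FABP7 fell from 284 ± 147 to 2.76 ± 0.913 CPM, SOX2 from 223 ± 5.52 to 16.9 ± 5.93 and PAX6, a relative of PAX3, from 83.2 ± 6.67 to 33.7 ± 11.5. VIM and NES did not pass, so that the list's summed level was 10130 to 10820 CPM in all 4 libraries. Of 7 pluripotent stem cell genes 1 rose, ZFP42, and 3 fell, LIN28A (74.2 ± 14.8 to 1.49 ± 0.503 CPM), SALL4 and DNMT3B (median log2 FC -1.92, or -0.46 with genes at 0 at their bound). In the fits over 9 libraries 2 pluripotent stem cell genes rose without WT library S3 and 0 without KO library S1. Of 6 further PAX, SOXE, FOXD and TFAP2 paralogs tested, PAX5 rose and PAX6 fell, but in fits over 9 libraries 0 paralogs were called higher whichever NPC library was left out, and 0 lower without KO library S1. SOX8, the remaining SOXE factor, had 0.962 ± 0.0879 CPM in WT and 1.07 ± 0.303 in KO NPCs. In HEK293T cells 0 genes of any of these lists were called by edgeR, and between 0 and 4 genes of a list had an unadjusted p below 0.05, the most being 4 of 26 premigratory and migratory crest genes.

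**Figure D4:**
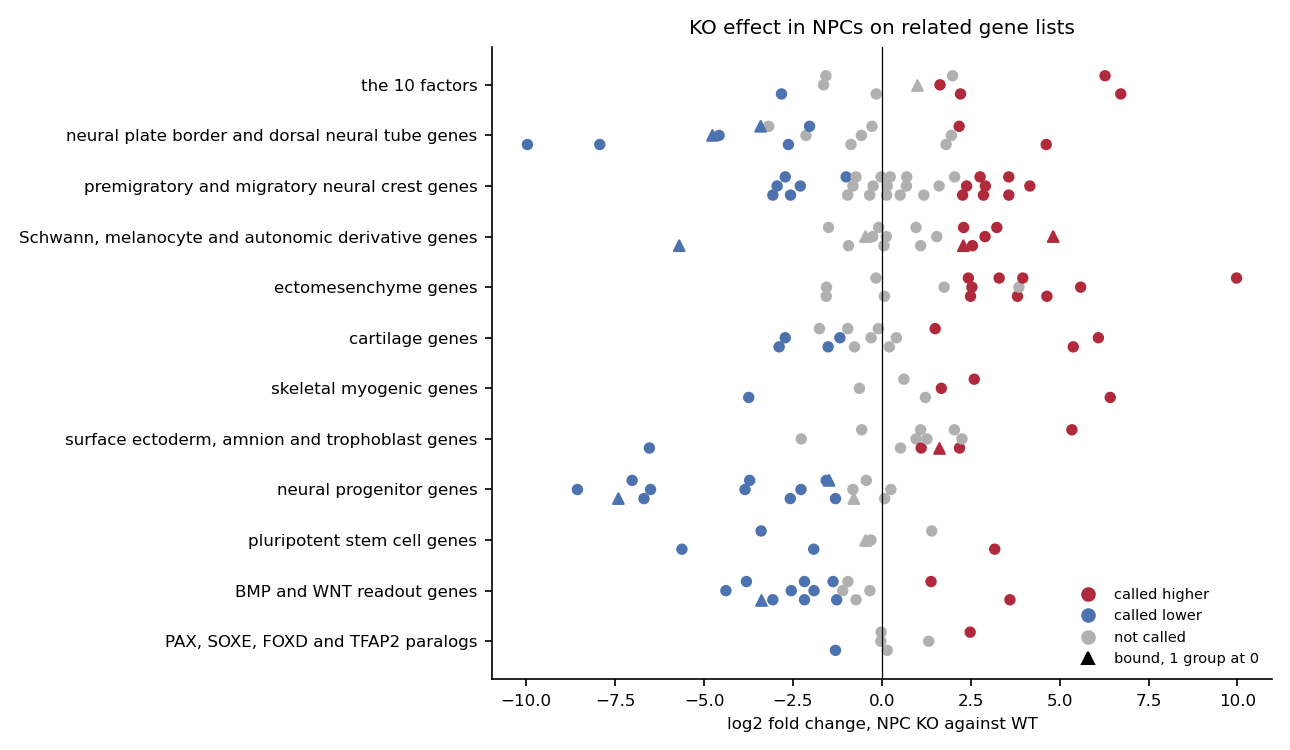
Log2 FC of KO against WT in NPCs for each tested gene of the 10 factors and of 11 related lists (points, edgeR estimates; triangles, bounds of genes at 0 counts in 1 group; color, call). Ectomesenchyme genes have 9 higher calls and 0 lower, neural progenitor genes 12 lower and 0 higher, and the 10 factors have calls on both sides.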

How the data were processed

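RNA-seq counts of 10 libraries were analysed, and the 10 factors and all lists were chosen with earlier results of these data known. The authors aligned stranded mRNA reads with hisat2 (hg19), assigned unique alignments to genes with featureCounts and deposited raw counts, 1 table per cell type. Versions, gene annotation and the strand setting of featureCounts are not given in the sources used here. Groups came from the sample labels, and no label pairs WT with KO libraries.

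Genes with a total count of at least 1 per library were tested by the quasi-likelihood test of edgeR 4.0.16 under R 4.3.3 (TMM scaling, Benjamini-Hochberg adjustment over all genes tested), each cell type by itself, and the interaction and WT contrast over genes in both tables with a total of at least 10 counts. Calls required an FC above 2 together with an adjusted P below 0.05. CPM were calculated from the counts. The level of 3 counts per library was used as the floor, 0.0921 to 0.154 CPM, and floors and intervals cover counting error only. Tests were tried on simulated data. Alternatives were voom (limma 3.58.1, the test of the study's methods), DESeq2 1.42.0, other scalings, filters and thresholds, all libraries in one fit and each library left out, and, added after seeing the data, each NPC library left out of the fit over all libraries. Named were the 10 factors, ZNF274 and the nearest and overlapping tested genes. The 2 genes of highest r for each factor, with at least 1 CPM in a group, were named too. From each list, up to 4 called genes per direction with a mean of at least 1 CPM were named. Further list genes, among them genes not called or with a mean under 1 CPM, were also named, some of them, as stated, after their values had been seen. Some genes of the lists are counted but not reported here by name. Coordinates are from GENCODE lifted to hg19, in which 23273 of 24050 identifiers were found. Promoter windows are from RefSeq.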

Additional observations from a re-analysis of the deposited data

Results flagged for a closer look

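The KO effect differed between NPCs and HEK293T cells, by the interaction test in edgeR, for 5 of the 9 factors tested, beside 12.2% of all genes, and for 4 of them with HEK293T counts above the floor. The log2 difference (NPC effect minus HEK293T effect) was 6.52 for PAX3, 2.48 for MSX2, 1.27 for SOX9, -3.36 for TFAP2C and -5.29 for PAX7. For PAX3, MSX2 and SOX9 both KO NPC libraries stood above both WT NPC libraries, and for TFAP2C both stood below. The value for PAX7 rests on HEK293T counts of 0 in WT and 1, 2 and 2 in KO libraries, which are within the floor, and its call was lost in 10 of 14 alternatives. The call for SOX9 was lost in 7 of 14, and its log2 difference lay between 0.91 and 1.72 over all 14. That for MSX2 was lost without KO library S1. The calls for PAX3 and TFAP2C were kept in all 14.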

How the results depend on the processing

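Of 519 alternative values of the log2 FC of the 10 factors, 481 kept their call or lack of a call, 27 lost a call and 10 gained one. In 1, with a call, the direction reversed. This was MSX1 in the contrast of WT NPCs with WT HEK293T cells, between -1.69 without WT NPC library S3 and 1.14 without S5. A change of direction with no call in either fit was counted as kept. In NPCs, TFAP2A kept its direction in 11 of 16 alternatives and MSX1 in 15 of 17. Some alternatives changed only a threshold and repeat the log2 FC of the main fit. Scaling by library size alone shifted the median log2 FC of all genes in NPCs by -0.11. In NPCs, calls of genes without an FC threshold numbered 3078 higher and 2812 lower, and 1009 lower at an adjusted p below 0.01. With each NPC library left out in turn, 2 to 5 factors were called higher and 0 to 2 lower, and 1141 to 2011 genes higher and 943 to 2033 lower. Leaving out a WT library leaves 1 in that group, and the spread is then taken from the KO pair alone, so the fit over the other 9 libraries was added: 3 to 5 factors were higher there and 1 to 2 lower, with PAX3, SOX9, MSX2 and TFAP2C called in each. MSX1 was called lower (log2 FC -2.45) without WT library S5 in it. In HEK293T cells DESeq2 called 153 genes higher and 11 lower, an adjusted p below 0.01 left 60 and 1, and leaving out a library gave 42 to 101 higher and 1 to 18 lower. In the interaction, DESeq2 called 4 factors higher, FOXD3 among them, and 1 lower, and leaving out a library gave 1 to 3 factors higher and 1 to 2 lower, with 647 to 1265 genes lower. In the contrast of WT cells, leaving out a library gave 1 to 3 factors higher and 3 to 5 lower. Per kb of the longest transcript in place of all exons, PAX3 in KO NPCs was 14.2 and TFAP2A in WT HEK293T cells 9.18 CPM per kb, which puts TFAP2A above MSX2 and MSX1 there. No paired analysis was possible because no label pairs WT with KO libraries. Low counts limit PAX7, TFAP2A, FOXD3 and TFAP2B in NPCs. They also limit 2 called factors, SOX10 (0 and 2 counts in WT NPCs) and TFAP2C (10 and 6 counts in KO NPCs).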
